A study of Mus musculus with 24 samples.

Results

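Expression in mouse Th1 cells and activated CD8+ T cells treated with a kappa opioid receptor (KOR) agonist was compared with expression in the same cell types treated with vehicle (DMSO). The comparison used the 12 libraries of these 2 cell types out of 24 libraries in the series, chosen by cell type and treatment label. Of these, 10 libraries had an agonist and 2 had DMSO, and cell type entered every model as a block. The agonists are described as perhydroquinoxaline-derived and carry code names. WMS-83 is WMS-83-02 of the treatment protocol, WMS-76 is WMS-76-04A, WMS-64 is WMS-64-07, WMS-200 is WMS-200-01 and WMS-75 is WMS-75-13. The Th1 sample titles carry these codes. The CD8 titles carry other suffixes for WMS-200, WMS-64, WMS-75 and WMS-83 and the same code only for WMS-76. Column names give the code without a suffix, and Th1 and CD8 libraries were taken as the same compound by that shared code. All 12 libraries came from wild-type (WT) mouse T cells that were polarized or activated in culture. The agonist was given at 0.1 µM, and treatment lasted up to 5 days. In each cell type every agonist and DMSO had 1 library, so an agonist had 2 libraries in all and a given agonist in a given cell type had no replicate. The columns carry WT number 4 for Th1 and 2 for CD8, constant within a cell type, and the labels do not explain this number. Nothing in the labels says that the libraries came from separate animals or cultures, so p-values measure the spread between these libraries, which may be technical. The title of the Th1 WMS-83 sample names Th17 cells, while its source, characteristics and column name give Th1.

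KOR, the receptor for dynorphin peptides encoded by Oprk1, couples to inhibitory G proteins, which lower adenylyl cyclase activity and cyclic AMP (cAMP) and signal through the βγ subunits to ion channels and MAP kinases. In T cells a high cAMP level dampens receptor signalling and cytokine production through protein kinase A. Th1 cells are CD4 helper cells driven by the transcription factor T-bet that make interferon gamma, and activated CD8 T cells share T-bet and interferon gamma and add cytotoxic granule proteins such as granzyme B and perforin.

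Library totals lay between 16842562 and 21946887 counts, and 14117 of 56748 annotated genes had enough counts to be tested, of which 11812 were protein coding. The cell type labels were checked against their markers in CPM, the count per gene scaled to a common library size. Across Th1 libraries Cd4 lay at 680 to 728 CPM and Cd8a at 11.9 to 13.7 CPM. Across CD8 libraries Cd8a lay at 341 to 383 CPM, Gzmb at 1680 to 1880 CPM and Prf1 at 62.4 to 74.4 CPM. The CD8 libraries also held Cd4 at 157 to 183 CPM and Zbtb7b, the CD4-lineage factor ThPOK, at 77.8 to 92.2 CPM, so these CD4-lineage transcripts were present in them. In Th1 libraries Zbtb7b lay at 145 to 161 CPM. The Th1 marker Cd40lg read 109 to 127 CPM in Th1 and 38.2 to 43.9 CPM in CD8 libraries. Tbx21 read 171 to 206 CPM in Th1 and 201 to 227 CPM in CD8 libraries. Ifng read 494 to 642 CPM and 1250 to 1380 CPM, so neither of these Th1 markers was higher in Th1 cells. The macrophage receptor gene Csf1r stayed at or below 0.417 CPM in all 12 libraries. Cd74, from the list of myeloid and dendritic markers, was not low. It read 118.6 to 139.5 CPM in Th1 agonist libraries, against 140.2 with DMSO, and 106.5 to 123.6 CPM in CD8 agonist libraries, against 113.1. The mitochondrial share of counts was 0.429% to 0.664% in Th1 agonist libraries, against 0.346% with DMSO, and 0.354% to 0.759% in CD8 agonist libraries, against 0.72% with DMSO. The distance between libraries, as the root mean square difference in log2 CPM over expressed genes, was 0.263 to 0.282 from Th1 agonist to Th1 DMSO and 0.246 to 0.296 among Th1 agonists. In CD8 cells the same distances were 0.228 to 0.269 and 0.238 to 0.293, and Th1 and CD8 libraries lay 0.42 to 0.471 apart. The DMSO libraries thus lay no further from the agonist libraries than these lay from each other.

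The opioid system genes were read first, since they hold the target of the compounds. Oprk1 had 2 counts in the Th1 WMS-200 library, 3 in Th1 WMS-64 and 2 in CD8 WMS-200. It had 0 counts in the other 7 agonist libraries and in both DMSO libraries, which makes 7 counts over 12 libraries. Other receptor genes were sparse as well, with 74 counts for the mu receptor Oprm1, 44 for the delta receptor Oprd1 and 39 for the nociceptin receptor Oprl1 over the 12 libraries. The dynorphin precursor Pdyn had 9 counts and the nociceptin precursor Pnoc had 32. None of these 6 genes had enough counts to be tested, and in bulk RNA few expressing cells and little RNA per cell cannot be told apart.

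The proenkephalin gene Penk, whose product gives enkephalins, was in contrast abundant. In Th1 cells Penk read 891 CPM with WMS-200, 888 with WMS-64, 928 with WMS-75, 882 with WMS-76 and 729 with WMS-83, against 855 with DMSO. In CD8 cells it read 514 CPM with WMS-200, 552 with WMS-64, 519 with WMS-75, 502 with WMS-76 and 571 with WMS-83, against 551 with DMSO. DMSO lay inside the agonist range in both cell types. The fitted log2 fold change of agonists over DMSO was -0.02 ± 0.06 (SE), with a 95% interval from -0.15 to 0.12 and an adjusted p of 0.996. Pomc, the precursor of beta-endorphin, was far lower at 1.74 to 2.92 CPM with agonists, against 2.46 with DMSO, in Th1 cells and 1.94 to 2.75, against 1.21, in CD8 cells. Its log2 fold change was 0.35 ± 0.31 with an interval from -0.29 to 0.98.

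Agonists were next compared with DMSO over both cell types, which asks whether the compounds as a class shifted the transcriptome. No gene passed an adjusted p of 0.05 in edgeR's quasi-likelihood test, 0 of 14117 genes or 0%, and the smallest adjusted p was 0.184. At an unadjusted p under 0.05 there were 602 genes, 4.26% of those tested, of which 343 (2.43%) were higher and 259 (1.83%) lower with agonists. DESeq2 called 3 genes, namely Neat1, Nrn1 and Gm6741, and limma-voom called 0, with 633 genes at an unadjusted p under 0.05. With no low-count filter edgeR called 9 genes, among them Neat1, Gm6741, Prpf39, Ccl9 and Spp1. All 5 agonist libraries lay above DMSO in both cell types for 356 genes (2.52%) and below it in both for 372 genes (2.64%). The intervals were narrow for most genes, but they bound only the average over 5 compounds and 2 cell types. Shifts of opposite sign between cell types or compounds cancel in that average. Like the p-values, the intervals rest on the spread between these libraries, which may be technical. Of the 11320 genes with a mean log2 CPM of at least 1, the 95% interval of the log2 fold change lay wholly within 0.5 of 0 for 81.6% and within 1 for 97.5%. The median half-width of the interval was 0.107 for genes over 7 in log2 CPM, 0.237 for genes at 3 to 5 and 0.975 for genes under 1, so the bounds were narrow for abundant genes and wide for rare ones.

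The smallest p-values belonged to a few transcripts. Neat1 (ENSMUSG00000092274, chromosome 19 at 5874736 to 5895898 on the minus strand as the file gives it, genome build not stated) is the long noncoding RNA that scaffolds nuclear paraspeckles. In Th1 cells it read 113 CPM with WMS-200, 108 with WMS-64, 104 with WMS-75, 96.4 with WMS-76 and 95.2 with WMS-83, against 74.8 with DMSO. In CD8 cells it read 101 CPM with WMS-200, 98.4 with WMS-64, 110 with WMS-75, 88 with WMS-76 and 103 with WMS-83, against 83 with DMSO. All 10 agonist libraries were above the DMSO library of their cell type. The log2 fold change was 0.37 ± 0.07 with an interval from 0.22 to 0.52 and an adjusted p of 0.184 in edgeR, against 0.035 in DESeq2. Neat1 and Gm6741 are not protein coding, fall outside the rule for named genes and were named after their values were seen.

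Nrn1 (ENSMUSG00000039114) encodes neuritin, a small membrane-anchored protein first described in neurons. In Th1 cells Nrn1 read 54.1 CPM with WMS-200, 63.7 with WMS-64, 56.2 with WMS-75, 58.1 with WMS-76 and 59.2 with WMS-83, against 71.7 with DMSO. In CD8 cells it read 108 CPM with WMS-200, 104 with WMS-64, 102 with WMS-75, 111 with WMS-76 and 108 with WMS-83, against 128 with DMSO. Here all 10 agonist libraries were below their DMSO library. The log2 fold change was -0.28 ± 0.06 with an interval from -0.40 to -0.16 and an adjusted p of 0.184 in edgeR, against 0.0399 in DESeq2.

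The pseudogene Gm6741 was rare, at 2.24 to 3.53 CPM with agonists, against 0.51 with DMSO, in Th1 cells and 0.927 to 2.68, against 0.58, in CD8 cells. Its log2 fold change was 2.04 ± 0.42 with an interval from 1.17 to 2.91 and an adjusted p of 0.184 in edgeR, against 0.0232 in DESeq2. Hes1, a transcriptional repressor and Notch target, was rarer still and was also named after its values were seen. It had 10 to 17 counts in Th1 agonist libraries, against 1 count with DMSO, and 8 to 22 counts in CD8 agonist libraries, against 0 with DMSO. Summed over libraries these are 132 counts with agonists, against 1 count with DMSO, a ratio of 28 in pooled CPM. The exact Poisson 95% interval of this ratio, from 4.94 to 1110, covers counting error only. Because Hes1 was picked for a small p-value in the same libraries, the interval is no separate support. Every agonist library was above every DMSO library, and Hes1 had an adjusted p of 0.184 in edgeR and 0.603 in DESeq2. In the Th17 and Treg libraries of the series, where treatment is mixed with the WT number, Hes1 had 0 to 3 counts with agonists, against 4 with DMSO, and 0 to 7, against 3. In those cells Neat1 read 69 to 197 CPM with agonists, against 158 with DMSO, in Th17 and 260 to 373, against 314, in Treg, so DMSO lay inside the agonist range. Nrn1 lay at 9.9 to 13.3 CPM with agonists, against 10.8 with DMSO, in Th17 and at 24.4 to 41, against 20.1, in Treg. For Gm6741 the values were 1.63 to 4.21 CPM with agonists, against 1.78 with DMSO, in Th17 and 1.17 to 3.67, against 4.08, in Treg.

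**Figure D1:**
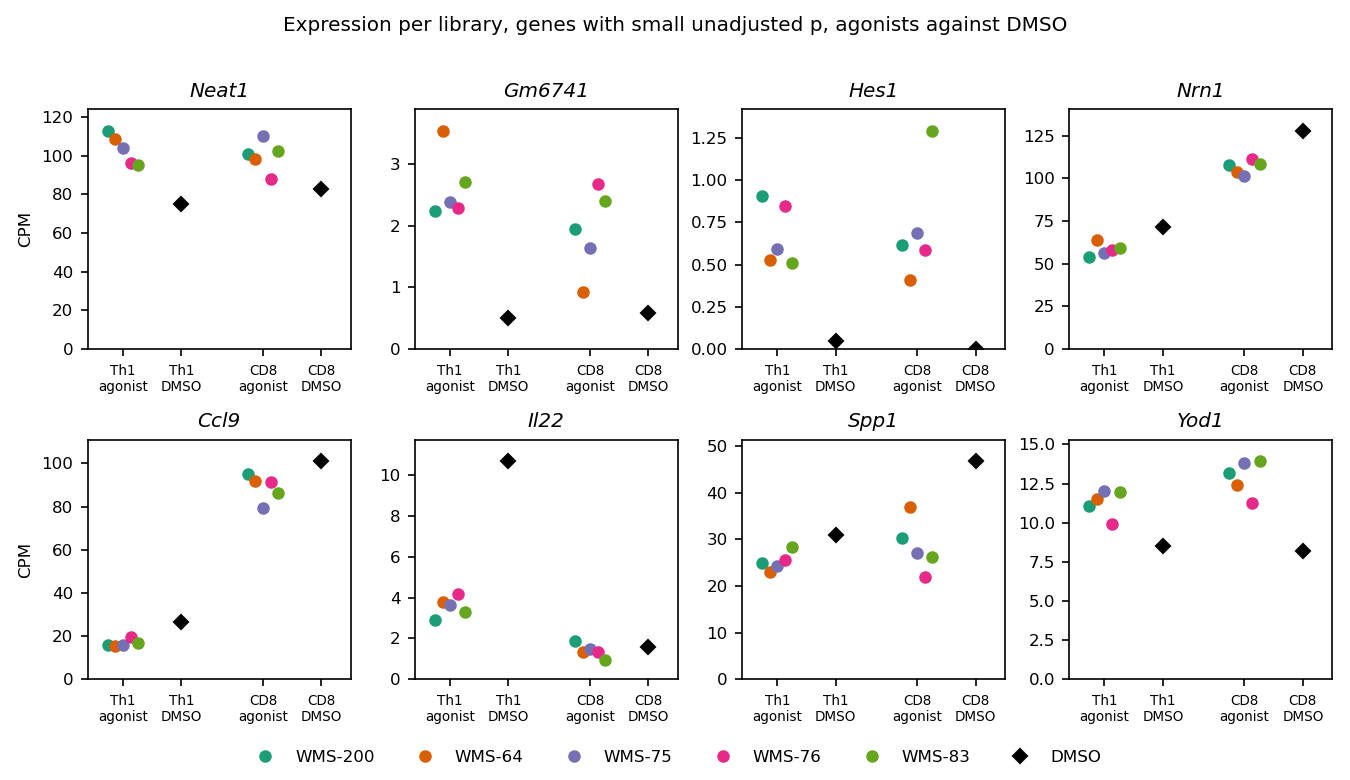
CPM on the y axis (each panel from 0) for 8 genes, with 1 point per library: coloured circles for the 5 agonists and a black diamond for DMSO, Th1 on the left and CD8 on the right of each panel. The agonist circles lie above the diamond in both cell types for Neat1, Gm6741, Hes1 and Yod1 and below it for Nrn1, Ccl9 and Spp1, while Il22 is separated in Th1 and not in CD8.

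Among protein-coding genes the next in rank did not pass the test either, and their values are given as a description. Ccl9, a CC chemokine gene, read 15.3 to 19.6 CPM with agonists, against 26.4 with DMSO, in Th1 cells and 79.2 to 95.2, against 101, in CD8 cells (log2 fold change -0.40 ± 0.09, adjusted p = 0.553). Spp1, which encodes osteopontin, read 23 to 28.3 CPM with agonists, against 31 with DMSO, in Th1 cells and 21.9 to 37, against 46.7, in CD8 cells (log2 fold change -0.52 ± 0.14, adjusted p = 0.97). For both genes the DMSO library was the highest of its cell type. Cadm1, a cell adhesion gene, read 3.57 to 6.91 CPM with agonists, against 7.32 with DMSO, in Th1 cells and 0.587 to 1.31, against 2.69, in CD8 cells (log2 fold change -0.94 ± 0.27, adjusted p = 0.97). The cytokine gene Il22 differed from these in that its values were set by 1 cell type, with a log2 fold change of -1.58 in Th1 and -0.17 in CD8 cells. The other 8 genes named for a negative value had log2 fold changes from -0.30 to -0.18. They were the translation factors Mcts1 and Eif2b4, the elongation factor gene Ell2, Sertad1, the SLAM receptor gene Slamf1, the transcription factor Mlx, the helicase Ighmbp2 and Nrn1 described above. Of the 12 genes in that direction, 11 had all 10 agonist libraries below DMSO, the exception being Il22. Over all 14117 tested genes this held for 372 (2.64%), and the 12 were picked for small p-values.

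On the other side Yod1, a deubiquitinase gene, read 9.95 to 12 CPM with agonists, against 8.48 with DMSO, in Th1 cells and 11.3 to 13.9, against 8.17, in CD8 cells (log2 fold change 0.53 ± 0.13 with an interval from 0.26 to 0.81, adjusted p = 0.67). Prpf39, a splicing factor of the U1 particle, read 59.8 to 75.7 CPM with agonists, against 49.4 with DMSO, in Th1 cells and 58.9 to 72.5, against 54.9, in CD8 cells (log2 fold change 0.37 ± 0.09, adjusted p = 0.67). Gna15 encodes a G protein alpha subunit of the Gq class. It read 18.9 to 25 CPM with agonists, against 16.9 with DMSO, in Th1 cells and 23.1 to 31.1, against 19.8, in CD8 cells (log2 fold change 0.38 ± 0.12, adjusted p = 0.996). The other 9 had log2 fold changes from 0.20 to 0.34: the MAP kinase kinase kinase Map3k8 (Tpl2), its binding partner Tnip2, the ubiquitin ligase genes Rnf123 and Herc3, the intermediate filament gene Vim, Miip, Fam193b, Zfp692 and 4833420G17Rik. Of these 12 genes, 10 had every agonist library above DMSO, which held for 356 (2.52%) of all tested genes. The exceptions were Zfp692, at 37.2 CPM with WMS-64 against 38.3 with DMSO in CD8 cells, and Vim, at 255 CPM with WMS-83 against 266 with DMSO in Th1 cells. All 24 were picked for small p-values and 1 sign in both cell types, so their direction is no independent result.

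The genes that define type 1 cells came next. Ifng, which encodes interferon gamma, read 642 CPM with WMS-200, 494 with WMS-64, 504 with WMS-75, 557 with WMS-76 and 500 with WMS-83 in Th1 cells, against 638 with DMSO. In CD8 cells it read 1276 CPM with WMS-200, 1384 with WMS-64, 1279 with WMS-75, 1246 with WMS-76 and 1249 with WMS-83, against 1304 with DMSO. DMSO was inside the agonist range in both cell types, and 4 of the 5 Th1 agonist libraries lay below it. The log2 fold change of Ifng was -0.13 ± 0.08 with an interval from -0.31 to 0.05. Compound by compound it ran from -0.21 (WMS-83) to -0.01 (WMS-200), each with an SE of 0.10. The gene of the T-bet factor, Tbx21, had a log2 fold change of 0.01 (interval -0.11 to 0.12) and the granzyme B gene Gzmb -0.01 (-0.11 to 0.10), both bounded close to 0. The interval ran from -0.13 to 0.30 for the perforin gene Prf1, from -0.37 to 0.14 for Il2, from -0.23 to 0.04 for Tnf and from -0.14 to 0.17 for Il12rb2, the signalling chain of the interleukin 12 receptor. For the coreceptors the log2 fold change was -0.04 ± 0.05 for Cd4 and 0.08 ± 0.06 for Cd8a. All 9 genes had an adjusted p of 0.996.

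**Figure D2:**
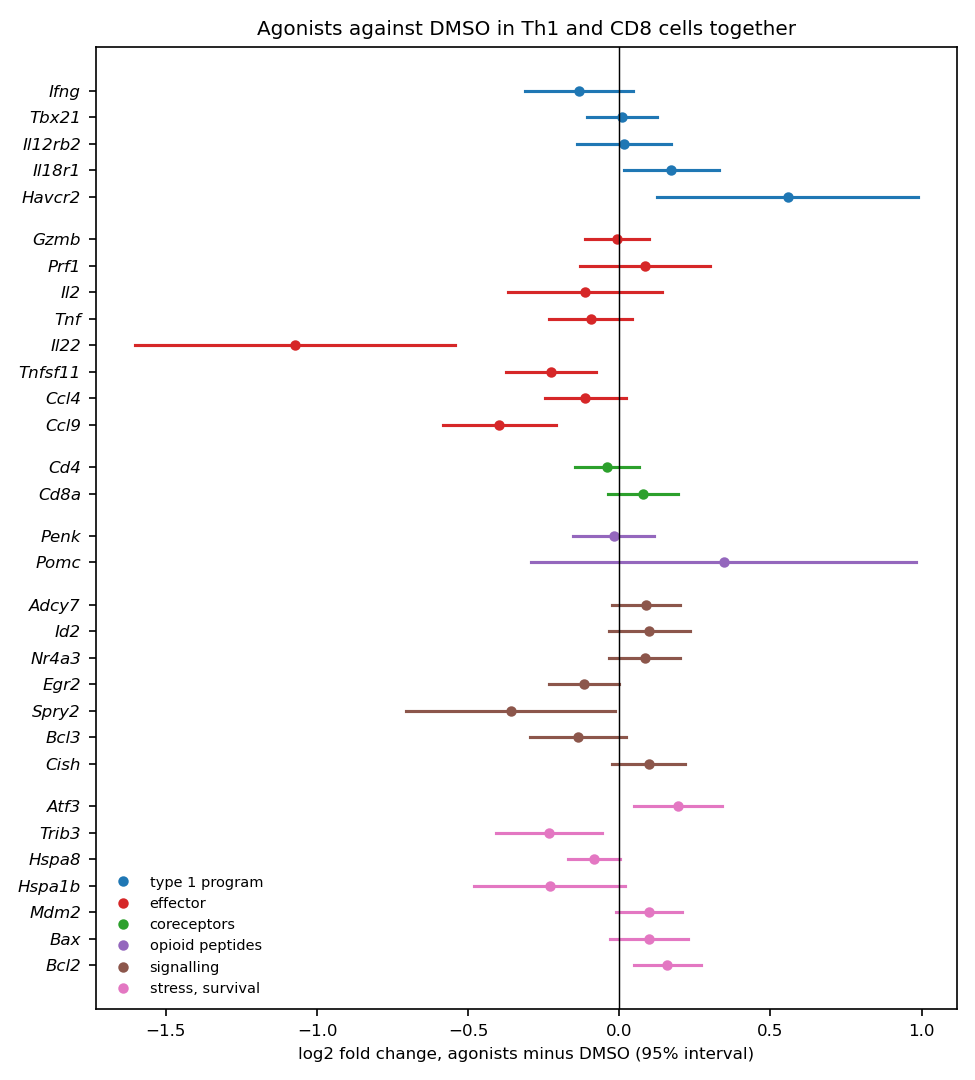
Log2 fold change of agonists over DMSO (points) with its 95% interval (lines) on the x axis, for named genes down the page, coloured by the set they belong to. The intervals of some genes, such as Il22 and Ccl9, lie apart from 0 before adjustment, while those of Tbx21 and Gzmb are narrow and cross 0. No gene drawn passed the adjusted threshold.

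Gene lists were read by counts and medians beside those of all tested genes, of which 7129 had a positive and 6988 a negative log2 fold change, with a median of 0.00132. No list had a member past the adjusted threshold, and the smallest adjusted p among list members were 0.553 for Ccl9 and 0.565 for Il22, with 0.996 for the rest. The list closest to the receptor, inhibitory G proteins, adenylyl cyclases, phosphodiesterases and protein kinase A, had all 30 members tested, 16 positive and 14 negative, with a median of 0.00789. The interval lay within 0.5 of 0 for 27 of the 30, among them the adenylyl cyclase gene Adcy7 (0.09, interval -0.02 to 0.20). Genes inducible by cAMP and CREB had 10 positive and 4 negative members with a median of 0.0315, which was 0.109 in Th1 and -0.0607 in CD8 cells. Among them were the orphan nuclear receptor Nr4a3 at 0.08 and the transcriptional repressor Id2 at 0.10. MAP kinase feedback genes had 4 positive and 8 negative members with a median of -0.0216, and the ERK pathway inhibitor Spry2, at -0.36, had the smallest p of these. Spry2 read 3.23 to 3.84 CPM with agonists, against 5.52 with DMSO, in Th1 cells and 8.18 to 10.5, against 9.44, in CD8 cells. Its log2 fold change was -0.08 without the Th1 DMSO library and -0.65 without the CD8 DMSO library, so the value came from Th1 cells. JAK and STAT feedback genes had 7 positive and 5 negative members with a median of 0.00708, with the STAT5 target Cish at 0.10 and the NF-κB cofactor Bcl3 at -0.14.

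Lists of effector function followed. The type 1 program had 9 positive and 9 negative members with a median of -0.000885, and the interval lay within 1 of 0 for all 18. Of its members 2 were higher at an unadjusted p under 0.05, against 343 (2.43%) of all tested genes. The 2 members were Havcr2, the gene of the inhibitory receptor TIM-3 (0.56 ± 0.21), and the interleukin 18 receptor gene Il18r1 (0.17). Havcr2 read 2.59 to 3.68 CPM with agonists, against 1.81 with DMSO, in Th1 cells and 5.76 to 7.38, against 4.85, in CD8 cells. Every agonist library thus lay above the DMSO library of its cell type, as for 356 (2.52%) of all tested genes. Cytotoxic granule genes had 7 positive and 9 negative members with a median of -0.00403, and the granzyme gene Gzme (1.18 ± 0.56) was rare in Th1 cells at 0.205 to 1.12 CPM, against 0.0464 with DMSO. Cytokine genes had 5 positive and 13 negative members with a median of -0.0793. Of these, 3 were lower at an unadjusted p under 0.05, against 259 (1.83%) of all tested genes. Among the 3 were Il22 and Tnfsf11, the gene of RANK ligand (-0.23 ± 0.07). Chemokine genes had 2 positive and 7 negative members with a median of -0.0657, with Ccl4 at -0.11, and chemokine receptor and homing genes had 7 and 9 with a median of -0.0065. Interferon gamma response genes had 9 positive and 11 negative members with a median of -0.000449, and type I interferon response genes had 6 and 5 with a median of 0.0591.

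Activation and stress lists had small medians as well. Immediate early genes had 11 positive and 12 negative members with a median of -0.0246, with the stress-induced factor Atf3 at 0.20 ± 0.07 and Egr2 at -0.12. Costimulation genes had 6 and 7 members, inhibitory receptors 6 and 5 with the PD-1 gene Pdcd1 at -0.13, and naive and memory genes 9 and 4 with a median of 0.0325. The antiapoptotic gene Bcl2, in the naive and memory and the apoptosis lists, stood at 0.16 ± 0.05. Integrated stress and unfolded protein response genes had 4 positive and 16 negative members with a median of -0.0643. Of its 20 tested members, 1 was higher and 4 were lower at an unadjusted p under 0.05, with the pseudokinase gene Trib3 at -0.23 ± 0.08. Over all tested genes 2.43% were higher and 1.83% lower at that level. Heat shock genes had 1 positive and 9 negative members with a median of -0.0568, with the chaperone genes Hspa8 at -0.08 and Hspa1b at -0.23. The p53 response had 10 positive and 2 negative members with a median of 0.0451, with the p53 inhibitor Mdm2 and the proapoptotic Bax both at 0.10. Members of a list are not independent, and no list was tested as a whole.

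Proliferation and oxidative phosphorylation genes were closely bounded, like several other lists. Over the 11320 genes with a mean log2 CPM of at least 1 the interval lay within 0.5 of 0 for 81.6%. It did so for all tested members of the JAK and STAT feedback, activation and costimulation, naive and memory, p53 response and apoptosis lists. The interval lay within 0.5 of 0 for all 23 proliferation genes (12 positive, 11 negative, median 0.00986, with the thymidine kinase gene Tk1 at 0.16) and for all 20 nuclear oxidative phosphorylation genes (median -0.023). Glycolysis genes had 10 positive and 8 negative members with the lactate transporter gene Slc16a1 at -0.13, hypoxia genes 10 and 5, and cholesterol synthesis genes 7 and 12. T cell receptor and coreceptor genes had 2 positive and 9 negative members with a median of -0.0419, and the interval lay within 0.5 of 0 for all 11, among them Cd5 at -0.09. Mitochondrially encoded genes had a median of -0.00101 over both cell types, made of 0.604 in Th1 and -0.49 in CD8 cells. That pair follows the mitochondrial shares given above, where the Th1 DMSO library was below every Th1 agonist library and the CD8 DMSO library was above all CD8 agonist libraries but 1. What sets the mitochondrial share was not tested.

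No marker list of other cells separated the groups in both cell types. The summed level of 8 B cell markers was 10 to 13.3 CPM with agonists, against 11.6 with DMSO, in Th1 cells and 9.35 to 14.6, against 9.96, in CD8 cells. For 12 myeloid and dendritic markers it was 142 to 167 CPM with agonists, against 164 with DMSO, in Th1 cells and 138 to 154, against 144, in CD8 cells. For 13 Th17, Th2 and Treg markers it was 82.4 to 107 CPM with agonists, against 99.6 with DMSO, in Th1 cells and 68.4 to 85.7, against 78.3, in CD8 cells. NK and gamma delta markers summed to 3.88 to 7.04 CPM with agonists, against 4.5 with DMSO, in Th1 cells and 8.45 to 10.1, against 9.6, in CD8 cells. The 6 erythroid markers summed to 0.105 to 0.398 CPM with agonists, against 0.695 with DMSO, in Th1 cells and 0.473 to 1.22, against 0.685, in CD8 cells. The 6 stromal and endothelial markers summed to 17.7 to 20.7 CPM with agonists, against 20.2 with DMSO, in Th1 cells and 14.1 to 17, against 17.8, in CD8 cells. DMSO lay above the agonist range for erythroid markers in Th1 and for stromal markers in CD8 cells, and the part of these markers in any result was not tested.

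**Figure D3:**
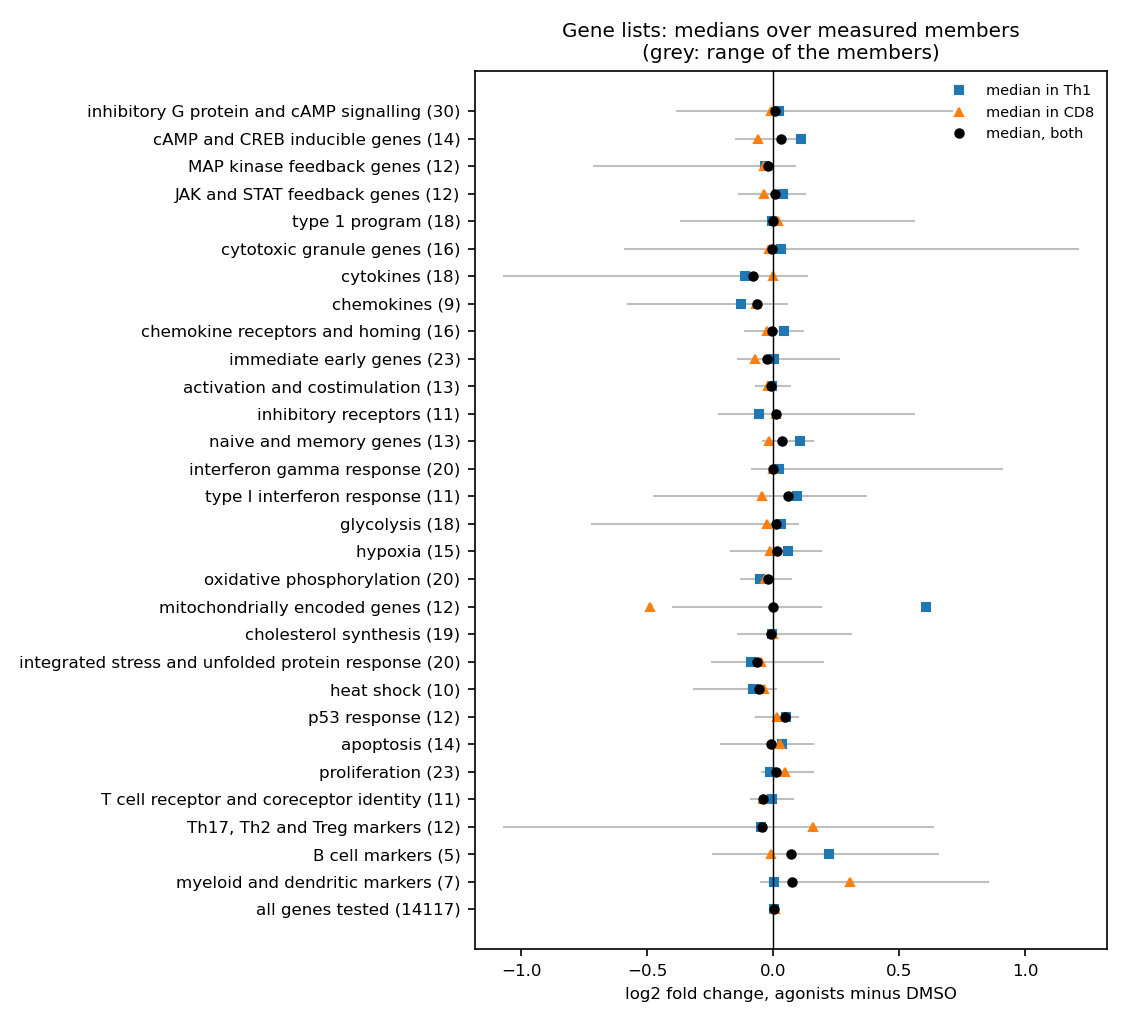
Median log2 fold change of agonists over DMSO on the x axis for each gene list with at least 5 tested members (number in brackets), in Th1 (squares), CD8 (triangles) and both (black circles), with the range of the members in grey. Most medians lie close to 0 like that of all tested genes; the mitochondrially encoded genes stand at 0.604 in Th1 and -0.49 in CD8 cells, and the few tested myeloid and B cell markers at 0.304 in CD8 and 0.221 in Th1 cells.

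The effect was then compared between cell types, which asks whether CD8 and Th1 cells responded alike. The difference, CD8 minus Th1, passed for 1 of 14117 genes (0.00708%), the processed pseudogene Gm2606 (ENSMUSG00000078300). In CD8 cells Gm2606 lay at 0.998 to 2.19 CPM with agonists, against 16.4 with DMSO, and in Th1 cells at 1.07 to 1.89, against 1.25. The CD8 DMSO library alone was high. The difference in log2 fold change was -3.71 ± 0.60 with an interval from -4.94 to -2.47 and an adjusted p of 0.021. It no longer passed without the Th1 WMS-75 library (adjusted p = 0.0525) or without robust dispersion estimation (0.0852). In CD8 cells alone the same gene was the 1 called (0.00708%), with a log2 fold change of -3.47 ± 0.32. A contrast within 1 cell type rests on a single DMSO library, which is assumed to vary like the agonist libraries.

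In Th1 cells alone 4 genes passed, 0.0283% of those tested. H2-Q6, a Qa-region class I gene of the major histocompatibility complex, fell to 1.05 to 2.32 CPM with agonists, against 7.23 with DMSO (-2.16 ± 0.35, adjusted p = 0.0301). In CD8 cells it read 5.96 to 12.7 CPM with agonists, against 8.17 with DMSO. Its close relative H2-Q7 had 146 to 240 counts in Th1 agonist libraries, against 244 with DMSO. Reads can be split between such near-identical genes, and the part of such a split in the value of H2-Q6 was not tested. The pseudogene Gm10175 rose to 6.25 to 10.1 CPM with agonists, against 2.32 with DMSO (1.89 ± 0.33, adjusted p = 0.0301), while in CD8 cells it read 5.99 to 10.6 CPM, against 8.44. Ccl9 fell in Th1 cells by 0.65 ± 0.12 on the log2 scale (adjusted p = 0.0389). Il22, a cytokine that acts on epithelial cells, read 2.88 to 4.18 CPM with agonists, against 10.7 with DMSO, in Th1 cells (-1.58 ± 0.30, adjusted p = 0.0428) and 0.939 to 1.89, against 1.58, in CD8 cells. For all 4 genes the Th1 DMSO library stood apart from the 5 Th1 agonist libraries. The number of calls in Th1 cells was 0 without the Th1 WMS-64 or the Th1 WMS-83 library and 0 to 19 over the other settings. The difference CD8 minus Th1 did not pass for these genes in edgeR with the low-count filter. It passed for Gm10175 in DESeq2 (adjusted p = 0.0357) and with no filter (8e-04), and for H2-Q6 with no filter (0.00239) but not in DESeq2 (0.225).

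Of the genes whose difference did not pass in edgeR, the neuronal enolase gene Eno2 had the smallest unadjusted p among protein-coding genes. In CD8 cells Eno2 read 29.4 to 37.7 CPM with agonists, against 39.2 with DMSO, and in Th1 cells 40.4 to 52, against 29.3 (difference -0.90 ± 0.19, adjusted p = 0.354). Its difference passed in DESeq2 (adjusted p = 0.0426) and with no filter (0.000807). The DMSO library was the highest of the CD8 libraries and the lowest of the Th1 libraries. The difference was 2.08 ± 0.52 for H2-Q6, 1.11 ± 0.29 for Crybg3 and -0.75 ± 0.18 for the heme synthesis gene Ppox, with adjusted p from 0.683 to 0.703. Over the 11320 genes the agonist effect in Th1 and CD8 cells, which share no library, had a Pearson r of 0.0646 and a Spearman rho of 0.0662, and 53.7% of genes had 1 sign in both. Genes of 1 library share its depth and composition and are not independent replicates. The interval of the difference lay within 0.5 of 0 for 49.3% of these genes, so the comparison between cell types was less precise than the pooled one.

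**Figure D4:**
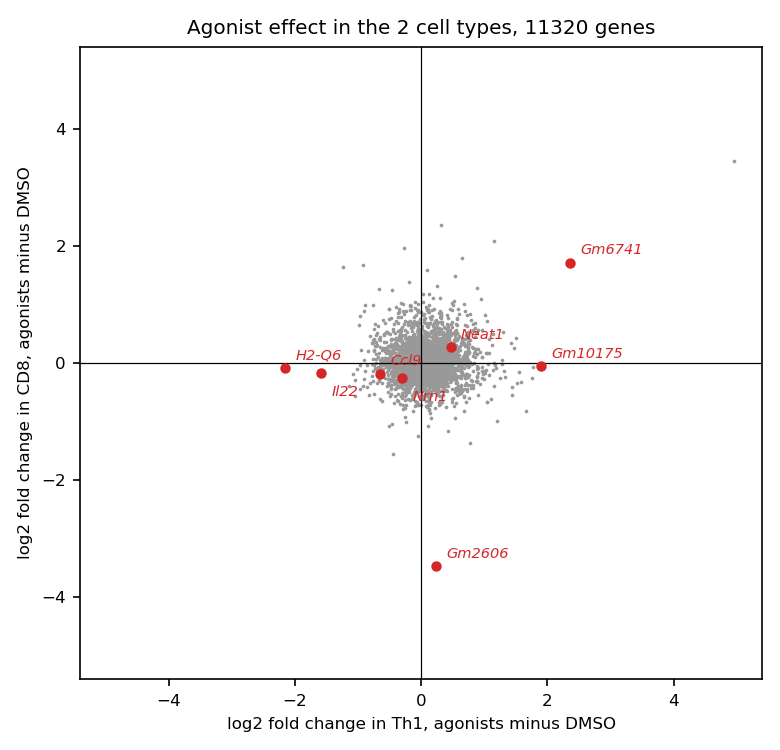
Log2 fold change of agonists over DMSO in Th1 cells (x axis) against CD8 cells (y axis) for 11320 genes (grey points), with 8 named genes in red (Gm6741 and Gm2606, at a mean log2 CPM under 1, are not among the 11320). The cloud shows hardly any slope (r = 0.0646), Gm2606 lies low in CD8, H2-Q6, Il22 and Gm10175 lie off in Th1, and the grey point at the upper right is Srp54b (4.95 in Th1, 3.45 in CD8), whose agonist libraries ranged from 0.235 to 38.3 CPM and whose adjusted p was 0.996.

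Each compound was set against DMSO with its Th1 and CD8 libraries together. The 5 comparisons share the same 2 DMSO libraries, so values that recur between compounds are not separate evidence. WMS-200 and WMS-64 had no gene past the threshold in edgeR (0% each), with 601 and 877 genes at an unadjusted p under 0.05, and DESeq2 called 2 for WMS-200 and 0 for WMS-64, limma-voom 0 for both. WMS-75 had 3 genes (0.0213%), all higher: the pseudogene Gm6563 (0.71 ± 0.12, adjusted p = 0.0402), the unclassified transcript Gm37795 (0.72 ± 0.13, adjusted p = 0.044) and Neat1 (0.44 ± 0.08, adjusted p = 0.044). For Neat1 the other compounds gave 0.44 (WMS-200), 0.39 (WMS-64), 0.33 (WMS-83) and 0.22 (WMS-76), and none of these passed in edgeR with the low-count filter. With WMS-200, however, Neat1 passed in DESeq2 (adjusted p = 0.042), with no filter (0.000533), without Th1 WMS-64 (0.0471) and without CD8 WMS-64 (0.0435). It also passed with length offsets (0.00758), which remove a length trend from each library and were added after the data were seen. With WMS-64 it passed with no filter (0.00574) and with length offsets (0.0372). With WMS-75 the adjusted p of Neat1 was 0.0176 in DESeq2 and 0.365 with length offsets, so its call is not particular to WMS-75. Gm37795 read 26.6 CPM with WMS-75, against 14.4 with DMSO, in Th1 cells and 26.8, against 18.1, in CD8 cells. With every library left out in turn the WMS-75 count ran from 0 to 6, and without robust dispersion estimation it was 0.

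WMS-76 and WMS-83 had 1 gene each (0.00708% each), in both cases the processed pseudogene Gm17828 (ENSMUSG00000098893). In Th1 cells Gm17828 read 9.17 CPM with WMS-200, 12.1 with WMS-64, 7.2 with WMS-75, 4.72 with WMS-76 and 3.28 with WMS-83, against 16.1 with DMSO. In CD8 cells it read 7.42 CPM with WMS-200, 10.1 with WMS-64, 5.08 with WMS-75, 2.19 with WMS-76 and 3.35 with WMS-83, against 7.38 with DMSO. The WMS-76 and WMS-83 libraries were the lowest of both cell types, and the other compounds lay on both sides of DMSO in CD8 cells. The log2 fold change was -1.75 ± 0.25 with WMS-76 (adjusted p = 0.0032) and -1.76 ± 0.26 with WMS-83 (adjusted p = 0.00409). Without the Th1 DMSO library the adjusted p was 0.999 for WMS-76 and 0.417 for WMS-83, without CD8 WMS-76 it was 0.187 for WMS-76, and without Th1 WMS-83 it was 0.74 for WMS-83.

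The protein-coding genes named for each compound did not pass the test in edgeR with the low-count filter. With WMS-200 the cytochrome c oxidase subunit gene Cox6b2 had the smallest p (0.75 ± 0.16, adjusted p = 0.333), the glutathione transferase gene Gstp1 stood at 0.40 ± 0.09 (adjusted p = 0.333), Nrn1 at -0.32 (0.359) and the dynein heavy chain gene Dync1h1 at -0.28 (0.596). With WMS-64 the values were 0.59 ± 0.13 for Gna15 and 0.30 for Vim (adjusted p = 0.285 each), and -0.32 for the zinc finger factor Hivep3 (0.298). With WMS-75 Gstp1 had the smallest p (0.41 ± 0.09, adjusted p = 0.163, and 0.0204 with length offsets). The values of other genes were 0.33 for Il18r1, -0.34 for Nrn1, -0.33 for Tnfsf11 and -0.52 for Ccl9, with adjusted p from 0.297 to 0.376. With WMS-76 Mcat, a gene of mitochondrial fatty acid synthesis, had the smallest p (-0.48 ± 0.11, adjusted p = 0.983), and the polymerase gene Pole stood at 0.26 and Mlx at -0.34 (adjusted p = 0.997 each). With WMS-83 the values were 0.51 for Prpf39 (adjusted p = 0.303), 0.51 for the costimulatory receptor gene Tnfrsf14 (0.442) and -0.48 for the sterol pathway gene Acat2 (0.643). The numbers of genes at an unadjusted p under 0.05 were 954 for WMS-75, 674 for WMS-83 and 532 for WMS-76.

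The 5 compounds were finally compared with each other at the same dose in all 10 pairs, which set no compound against DMSO. The 2 DMSO libraries were still part of the fit, so they entered its scaling and its estimate of spread. The labels give no structure for any code, so no structural change can be set beside these differences. A test over all 5 compounds at once passed for 24 genes (0.17%). Of the pairs, WMS-64 minus WMS-83 had 28 genes (0.198%), WMS-200 minus WMS-83 had 6 (0.0425%), and WMS-200 minus WMS-75 and WMS-64 minus WMS-76 had 1 each (0.00708% each). The other 6 pairs had 0 in edgeR, with 419 to 1226 genes at an unadjusted p under 0.05. Of these 6, DESeq2 called 33 genes for WMS-64 minus WMS-75, 2 for WMS-75 minus WMS-83, 1 for WMS-200 minus WMS-76 and 0 for the rest, and limma-voom called 0 for all 6. Across the 10 pairs the interval of the difference lay within 0.5 of 0 for 69.9% to 73.7% of the 11320 genes and within 1 for 92.5% to 94%, so differences above 2-fold between compounds were bounded for most genes. For WMS-76 minus WMS-83, with no gene called, those shares were 72.7% and 93.7%. Adjusted over all 10 pairs together, Gm17828 was the 1 gene that passed (adjusted p = 0.0249), with differences of 1.73 ± 0.26 for WMS-64 minus WMS-76 and 1.75 ± 0.26 for WMS-64 minus WMS-83.

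The genes of the largest pair were mostly long. Hivep3 read 244 CPM with WMS-64, against 304 with WMS-83, in Th1 cells and 158, against 234, in CD8 cells (difference -0.44 ± 0.07, adjusted p = 0.00937, and 0.053 over all pairs). Crebbp, the gene of the acetyltransferase CBP that serves as a CREB coactivator, read 96.8 CPM with WMS-64, against 134 with WMS-83, in Th1 cells and 87.5, against 127, in CD8 cells (-0.51 ± 0.08, adjusted p = 0.00937). For both genes the WMS-64 library was the lowest of the 6 in each cell type. The deubiquitinase gene Usp24 and Prrc2c each had a difference of -0.37 (adjusted p = 0.0133), and Nutf2-ps1 had -1.32 ± 0.23 (adjusted p = 0.0133). Nutf2-ps1 read 14.4 CPM with WMS-83 in Th1 cells, where the other compounds read 5.48 to 7.26, and it can share reads with its parent gene. Of the 28 genes 2 were higher with WMS-64, Gm17828 and the vesicle transport gene Sytl1 (0.53 ± 0.10, adjusted p = 0.0137).

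Between WMS-200 and WMS-83 the lower genes were the dynein heavy chain gene Dync1h1, the ubiquitin ligase gene Cbl, Tnrc6b of the microRNA silencing complex, the lipid transfer gene Vps13d and 1 other. Dync1h1 read 275 CPM with WMS-200, against 364 with WMS-83, in Th1 cells and 276, against 392, in CD8 cells (-0.46 ± 0.07, adjusted p = 0.024). Against WMS-75, at 356 CPM in Th1 and 396 in CD8 cells, it differed by -0.45 ± 0.07 (adjusted p = 0.0318). The differences were -0.36 for Cbl, -0.44 for Tnrc6b and -0.49 for Vps13d, each with an adjusted p of 0.0473. The 1 higher gene was Gstp1, at 94.9 CPM with WMS-200, against 62.1 with WMS-83, in Th1 cells and 73.4, against 60, in CD8 cells (0.46 ± 0.09, adjusted p = 0.0473). Its near-identical copy Gstp2 had 0 to 18 counts per library.

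Gene length was read beside these counts. Of the 26 genes lower with WMS-64 than with WMS-83, 24 were longer than the median gene, and their median length was 14060 bases, against 4377.5 for expressed genes. The Spearman correlation across genes between gene length and a library's deviation from its cell type's mean was -0.285 in Th1 and -0.111 in CD8 cells for WMS-200, and -0.0673 and -0.231 for WMS-64. It was 0.108 and 0.262 for WMS-75, 0.069 and 0.179 for WMS-83, and 0.176 and 0.0299 for WMS-76, against -0.0093 and -0.149 for DMSO. WMS-200 and WMS-64 thus had negative trends in both cell types and the other compounds positive ones, which 6 of the 10 pairs set against each other. The correlation of the difference with gene length in these pairs was -0.334 for WMS-200 minus WMS-75 (1 gene called), -0.28 for WMS-64 minus WMS-75 (0), -0.275 for WMS-200 minus WMS-76 (0), -0.257 for WMS-200 minus WMS-83 (6), -0.235 for WMS-64 minus WMS-76 (1) and -0.207 for WMS-64 minus WMS-83 (28). How the number of calls relates to the length correlation was not tested. With length offsets the counts were 7 for WMS-64 minus WMS-83 (5 of them shared with the 28), 1 for WMS-200 minus WMS-83, 0 for WMS-200 minus WMS-75 and 2 for the test over all compounds. The compound and the length trend of its 2 libraries cannot be told apart in this design, and the part of gene length in the calls was not tested further. The count for WMS-64 minus WMS-83 was 2 without the Th1 WMS-83 library, 3 without the CD8 WMS-64 library and 82 without the Th1 WMS-64 library, and it was 0 when the fit held all 24 libraries of the series.

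**Figure D5:**
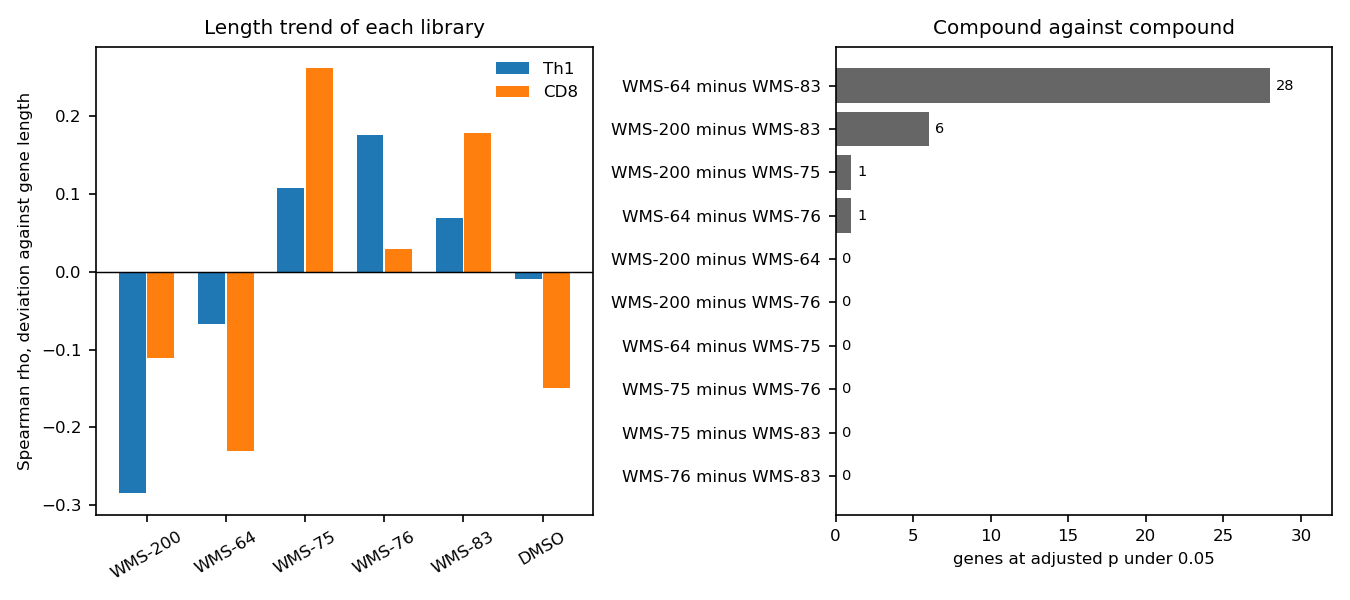
Left, Spearman rho across genes between gene length and each library's deviation from its cell type mean (y axis) by treatment, in Th1 (blue) and CD8 (orange); right, number of genes at an adjusted p under 0.05 (x axis) for the 10 compound pairs. WMS-200 and WMS-64 are negative in both cell types and WMS-75, WMS-76 and WMS-83 positive, and the 6 pairs that set one kind against the other have 28, 6, 1, 1, 0 and 0 calls.

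Agreement between the cell types was also read per compound, as the deviation of each compound from the mean of the 5 agonists. The Pearson r across 11320 genes between a compound's Th1 and CD8 libraries was 0.131 for WMS-83, 0.0464 for WMS-75, 0.0667 for WMS-64, 0.0115 for WMS-200 and -0.124 for WMS-76. Between Th1 and CD8 libraries of different compounds, 20 combinations, it ran from -0.196 to 0.177. Matched libraries therefore lay inside the range of unmatched ones for all 5 compounds.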

How the data were processed

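Poly(A)-enriched RNA was sequenced, and the authors deposited 1 table of raw counts per gene. Per the submitters' processing notes the tools were featureCounts, HISAT2 and fastp; version, strand setting, annotation and genome build: not given in the sources used here. The 12 Th1 and CD8 columns were matched to samples by their names, and 0 columns were left without a sample. Genes were kept by edgeR's filterByExpr with a minimum count of 10 by cell type, and TMM scaling was used. In edgeR 4.0.16 (R 4.3.3), robust quasi-likelihood models held cell type plus agonist (9 residual degrees of freedom), their interaction (8), or cell type plus compound (5). P-values were adjusted by Benjamini-Hochberg over all 14117 genes at 0.05, and intervals are 95%. CPM values use TMM-scaled library sizes, and levels of different genes are not corrected for length. The steps were tested on simulated data. Alternatives were DESeq2 1.42.0, limma-voom 3.58.1, other scaling and filters, all 24 libraries, each library left out, and length offsets.

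Named protein-coding genes with a mean log2 CPM of at least 1 were the called genes, filled up to 12 a direction for agonists (3 a direction for a compound or CD8 minus Th1) by the smallest p with 1 sign in both cell types, plus 5 called genes a pair, the opioid and type 1 hallmark genes, and 2 per list; some compound, pair and list genes are not reported here. Members and lists were chosen with earlier results of these data known. Library totals of 16842562 to 21946887 counts set the precision; counts of reads without molecular identifiers are not independent molecules.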

Additional observations from a re-analysis of the deposited data

Results flagged for a closer look

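Values of the named genes were checked for 1 agonist library standing apart from the other 4 of its cell type, by Dixon's test at its 95% critical value of 0.71. Of 182 groups of 5 libraries 14 stood apart. Chance alone gives about 1 in 20 for independent groups that were not picked from these data. Many genes here were named for their values in the same libraries, so that rate is no reference for this count. In Th1 cells the WMS-83 library was high for the chaperone gene Hspa8 (3266 CPM, others 2989 to 3053) and Nutf2-ps1 (14.44, others 5.482 to 7.262), and low for Mdm2 (265.2, others 294.3 to 301.6) and Penk (728.8, others 882.4 to 928.5). The Th1 WMS-75 library was high for Prf1 (10.05 CPM, others 6.642 to 7.51) and Cd5 (823.4, others 794.6 to 802.7), and Th1 WMS-76 was low for Mcts1 (39.49, others 41.38 to 42.05). In CD8 cells the WMS-64 library was high for Ifng (1384 CPM, others 1246 to 1279) and H2-Q6 (12.66, others 5.957 to 7.462) and low for Il12rb2 (248.3, others 275.2 to 284.6). The CD8 WMS-75 library was low for Atf3 (47.47 CPM, others 54.18 to 56.22) and Slamf1 (79.17, others 84.35 to 85.97), CD8 WMS-76 was low for Mcat (19.71, others 25.4 to 27.28), and CD8 WMS-83 was low for Bcl2 (188.5, others 204 to 209.5). The effect of agonists over DMSO differed between CD8 and Th1 cells for Gm2606, by -3.705 on the log2 scale in the interaction test, with the CD8 DMSO library alone high at 16.4 CPM.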

How the results depend on the processing

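For agonists over DMSO the count of 0 became 9 with no filter and 3 in DESeq2, and the cause was not tested. Without the CD8 WMS-200 library the call was Rpl29. With Th1 libraries only, with CD8 libraries only, or without 1 DMSO library, the agonist term rests on a single DMSO library. Such fits restate the contrasts within a cell type given above. CD8 minus Th1 (1) gave 8 with no filter, 0 at a minimum count of 30, 4 in DESeq2, 0 without robust estimation, 0 with all 24 libraries, and 0 to 3 with a library left out. Th1 alone (4) gave 19, 9 in DESeq2, 1 in voom, 0 without robust estimation and 0 with all 24 libraries, and 0 to 5 with one left out, while CD8 alone (1) gave 8 with no filter, 0 at the stricter filter and 1 to 2. With no filter the compounds gave 29 (WMS-64), 22 (WMS-200), 19 (WMS-75), 16 (WMS-83) and 11 (WMS-76). In DESeq2 WMS-200 gave 2 and WMS-83 gave 2, voom gave 3 for WMS-76, 1 for WMS-75 and 0 for WMS-83, and length offsets gave 1 each for WMS-200 and WMS-64. Without robust estimation WMS-75 gave 0, WMS-76 2 and WMS-83 2, with all 24 libraries all 3 gave 0, and WMS-75 gave 1 at the stricter filter. Left-out libraries gave 0 to 9 (WMS-64), 0 to 6 (WMS-75), 0 to 3 (WMS-83), 0 to 3 (WMS-76) and 0 to 2 (WMS-200).

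Among pairs, no filter gave 11 for WMS-200 minus WMS-64, 100 for WMS-200 minus WMS-75, 31 for WMS-200 minus WMS-76, 135 for WMS-200 minus WMS-83, 111 for WMS-64 minus WMS-75, 28 for WMS-64 minus WMS-76, 202 for WMS-64 minus WMS-83, 4 for WMS-75 minus WMS-76, 10 for WMS-75 minus WMS-83, 2 for WMS-76 minus WMS-83 and 252 for all compounds at once. DESeq2 gave 32 for WMS-200 minus WMS-75, 1 for WMS-200 minus WMS-76, 67 for WMS-200 minus WMS-83, 33 for WMS-64 minus WMS-75, 107 for WMS-64 minus WMS-83 and 2 for WMS-75 minus WMS-83. RLE scaling gave 2 for WMS-200 minus WMS-75, 14 for WMS-200 minus WMS-83 and 6 for WMS-64 minus WMS-75. The stricter filter gave 0 and 1 for WMS-200 minus WMS-75 and minus WMS-83, voom 0 and 22, and no robust estimation 0 and 1, with 1 also for WMS-200 minus WMS-76 and for WMS-75 minus WMS-83. With all 24 libraries every called pair and the joint test gave 0, and length offsets gave 0, 1, 7 and 2 for WMS-200 minus WMS-75, WMS-200 minus WMS-83, WMS-64 minus WMS-83 and the joint test, and 1 each for WMS-75 minus WMS-76 and WMS-75 minus WMS-83. Left-out libraries gave 0 to 4 (WMS-200 minus WMS-64), 1 to 38 (minus WMS-75), 0 to 11 (minus WMS-76), 0 to 58 (minus WMS-83), 0 to 88 (WMS-64 minus WMS-75), 0 to 33 (minus WMS-76), 2 to 82 (minus WMS-83), 0 to 2 (WMS-75 minus WMS-76), 0 to 8 (minus WMS-83), 0 to 2 (WMS-76 minus WMS-83) and 7 to 78 for the joint test.

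Of the named genes, the agonist log2 fold change turned sign for Tbx21 (0.00841, -0.00878 to 0.0295 with a library left out, -0.00996 in Th1 only), Gzmb (-0.00714, -0.0795 to 0.0791, 0.0176 with length offsets, 0.0756 in Th1 only), Prf1 (0.0846, -0.0267 to 0.314, -0.0212 in CD8 only), Cd4 (-0.0419, -0.124 to 0.0446, 0.0412 in Th1 only), Penk (-0.019, -0.0551 to 0.0229, 0.00399 with length offsets, 0.0197 in Th1 only), Pomc (0.345, -0.0876 to 0.941, -0.0916 in Th1 only), Adcy7 (0.0892, -0.0447 to 0.236, -0.039 in CD8 only) and Bax (0.0975, -0.000771 to 0.205); none of these was called. No paired analysis was possible because each treatment has 1 library per cell type and the WT number does not vary within a cell type, which is already the block. Effects within a cell type and their difference could not be estimated without that type's DMSO library, the joint test was not run in DESeq2 or voom, and the fit of all 24 libraries held 1 agonist term each for Th17 and Treg. Depth limits rare genes: the median half-width was 0.975 under a log2 CPM of 1.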
